A study of Mus musculus with 32 samples.

Results

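The 9 lymphoma lines of the study, numbered 1001, 1004, 1007, 1010, 1013, 1016, 1019, 1036 and 1039, were compared with each other on 11 of the series' 32 mouse 2-colour arrays. The members are the arrays that carry a lymphoma line of these numbers against the common pool, 12 in all, less the dim first array of line 1039. Every line carries the genotype ATMKO.CD3epsilonKO, that is, it comes from a mouse without the DNA damage kinase ATM and without the T cell receptor subunit CD3 epsilon, and grew out of a spleen with B cell lymphoma. Each line is 1 RNA sample and was untreated. The sample was labelled with Cy5 and the pool with Cy3 on all 11 arrays, with no dye swap. The pool was mixed from RNA of the tumours, of germinal centre B cells and of splenic B cells of both ATM genotypes, untreated or given anti-IgM, so it contains part of what it is compared with, and no normal cell sample was used here. Lines 1001 and 1010 were hybridised 2 times and the other lines 1 time. The repeats carry the same line on a second slide, and nothing in the labels says they came from separate cultures, so the p values measure the spread between arrays and not between cultures or mice.

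ATM signals DNA double-strand breaks, and B cells make such breaks when they assemble and switch their immunoglobulin genes. A B cell joins 1 variable (V) segment of the heavy chain locus and 1 of a light chain locus, kappa or lambda, and its descendants keep that choice, so a tumour that grew from a single B cell is expected to transcribe its own V segments. B cell tumours also differ by the stage of the B cell they resemble, which transcription factors such as BCL6 (germinal centre) and PRDM1 (plasma cell) mark.

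Values below are log2 ratios of line over pool after loess normalisation, and the difference between 2 lines is a log2 fold change. Between 49.9% and 55.5% of the spots on the 11 arrays were well above background in the sample channel, against 21.9% on the array left out. The 11 arrays lay on 3 slides: lines 1004 and 1007 and the first arrays of 1001 and 1010 on slide 1, the second arrays of 1001 and 1010 and line 1039 on slide 2, and lines 1013, 1016, 1019 and 1036 on slide 3. Lines on different slides are set against each other without a slide term, since lines 1013, 1016, 1019 and 1036 have no array elsewhere. The array left out correlated with line 1039 at r = 0.372 and with the other lines at 0.209 to 0.305. B cell identity genes were well above background in all 9 lines for Ms4a1, Cd79a, Cd79b, Cd22, Pax5 and Ebf1. Cd3e (chromosome 9), of which the strain has a null allele, read between -0.64 in line 1007 and 1.15 in line 1010, and Atm read between -1.54 in line 1019 and -0.51 in line 1010. The Atm and Cd3e probes were well above background on all 11 arrays, and whether they lie in the deleted part is not given in the sources used here, so they do not check the labels.

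Gene expression differed between the lines by more than it did between repeat arrays for a large part of the genes measured. Each gene was represented by its brightest probe. Among 21248 genes tested, 9336 (43.9%) differed among the 9 lines in limma's moderated F test at an adjusted p of 0.05, and 11526 had an unadjusted p under 0.05. The median SD over lines was 0.243, and the median SD between repeat arrays of 1 line was 0.11, a ratio of 2.21. A total of 671 genes (3.16%) had an SD over lines above 1, while the repeat SD passed 1 for 13 genes. Differences of 2-fold or more between repeats were found for 6 genes (0.0282%) in line 1001 and for 51 genes (0.24%) in line 1010. The repeat differences of these 2 lines correlated at 0.533 across genes, and both pairs set slide 2 against slide 1. The count was 3854 from the scanner software's own processed values and 15145 with a replicate block. Among the 4 lines of slide 1 with their repeats, 7550 of 21869 genes tested there differed.

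**Figure D1:**
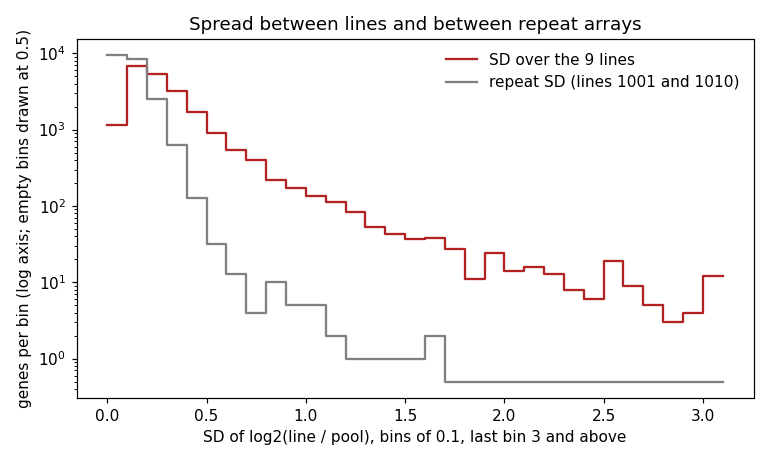
Number of genes (log axis) by the SD of their log2 ratio, over the 9 lines (red) and between the repeat arrays of lines 1001 and 1010 (grey), in bins of 0.1 with all values from 3 in the last bin. The median is 0.243 over lines and 0.11 between repeats, and 671 genes lie above 1 over lines against 13 between repeats.

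The genes that varied most were V segments of immunoglobulin genes, which made up 53 of the 100 probes with the largest SD over lines. They were singled out after their values were seen, and are given as a description. Of 151 probes for V segments or for predicted genes (Gm) that lie between the outermost named V segments of a locus, 64 belonged to the heavy chain locus on chromosome 12, 85 to the kappa locus on chromosome 6 and 2 to the lambda locus on chromosome 16. Their median SD over lines was 1.42 for heavy, 0.74 for kappa and 1.29 for lambda probes. The sequences of 16 probes follow, namely the highest probe of each line in a locus where it lay above the pool and at least 1 above the median of the other lines. They are shown because the lines differ most in these probes and because V segments of a family are alike, so a probe can also take up a relative's RNA. Each is the 60-base probe of the array, 5′ to 3′, with its mm9 position from the array's annotation. Capitals mark the longest stretch that the probe shares with a probe of another V segment or Gm gene in these loci.
Ighv1-54 (chr12:116432036-116432095, minus strand): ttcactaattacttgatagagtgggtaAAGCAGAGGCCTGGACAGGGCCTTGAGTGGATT
Gm16930 (chr12:115629983-115630042, minus strand): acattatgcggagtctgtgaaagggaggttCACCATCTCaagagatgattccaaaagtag
Gm9235 (chr12:116699334-116699393, minus strand): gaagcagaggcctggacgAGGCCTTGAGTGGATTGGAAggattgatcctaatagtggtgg
Ighv1-24 (chr12:116011319-116011378, minus strand): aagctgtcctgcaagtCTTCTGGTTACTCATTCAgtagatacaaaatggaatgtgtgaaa
Ighv1-63 (chr12:116733930-116733989, minus strand): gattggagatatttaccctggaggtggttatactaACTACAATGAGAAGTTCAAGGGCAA
Ighv1-18 (chr12:115921000-115921059, minus strand): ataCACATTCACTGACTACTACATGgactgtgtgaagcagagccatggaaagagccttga
Gm16865 (chr12:116745936-116745995, minus strand): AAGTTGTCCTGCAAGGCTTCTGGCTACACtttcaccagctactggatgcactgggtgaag
Gm16966 (chr12:116229490-116229549, minus strand): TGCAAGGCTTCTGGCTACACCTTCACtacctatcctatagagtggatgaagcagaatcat
Igkv6-17 (chr6:70321926-70321985, plus strand): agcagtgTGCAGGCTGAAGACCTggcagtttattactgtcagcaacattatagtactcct
Igkv12-98 (chr6:68521166-68521225, plus strand): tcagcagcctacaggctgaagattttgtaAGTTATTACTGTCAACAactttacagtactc
Igkv16-104 (chr6:68376007-68376066, plus strand): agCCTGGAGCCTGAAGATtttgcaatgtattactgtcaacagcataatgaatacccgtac
Igkv15-103 (chr6:68387766-68387825, plus strand): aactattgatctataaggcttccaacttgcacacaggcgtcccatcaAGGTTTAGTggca
Gm16637 (chr6:68581985-68582044, minus strand): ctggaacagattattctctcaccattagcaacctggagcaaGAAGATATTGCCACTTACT
Igkv17-121 (chr6:67987157-67987216, plus strand): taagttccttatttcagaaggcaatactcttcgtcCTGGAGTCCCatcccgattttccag
Igkv9-124 (chr6:67892237-67892296, minus strand): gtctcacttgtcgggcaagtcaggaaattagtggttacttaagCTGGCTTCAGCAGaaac
Iglv1 (chr16:19085111-19085170, minus strand): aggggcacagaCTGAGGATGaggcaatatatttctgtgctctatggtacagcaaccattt
The longest shared stretches were those of Ighv1-54 (33 bases, with Gm16746), Gm16865 (29), Gm16966 (26), Ighv1-63 (25), Ighv1-18 (22) and Gm9235 (20). The other 2 heavy chain probes, Gm16930 and Ighv1-24, shared 9 and 18 bases, and the kappa and lambda probes 9 to 19.

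Lines 1010 and 1013 had the most similar V signals over all V probes together. Igkv16-104 read 5.3 in line 1010 and 5.42 in line 1013, and -3.45 to -3.27 in the other 7 lines. The highest heavy chain probe of both was also the same one: Ighv1-24 read 4.71 in line 1010 and 4.96 in line 1013, next to 2.03 in line 1007, 1.09 in line 1039 and -0.18 to 0.08 elsewhere. Over the 151 probes these lines correlated at 0.891, the highest value among the 36 pairs of lines. They correlated at 0.947 over the kappa probes and at 0.819 over the heavy chain probes. Over the heavy chain probes the pairs 1007 and 1039 (0.955), 1036 and 1039 (0.885) and 1007 and 1036 (0.843) were more alike. Line 1010 also had signals that line 1013 lacked, in Gm16696 (3.72 against -2.39), Ighv10-3 (3.43 against -1.38) and Igkv14-111 (3.37 against -0.4), the last of which was higher still in line 1039, at 4.84.

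Line 1004 stood apart by its light chain. Iglv1, a lambda segment, read 4.23 in this line and -2.57 to -1.72 in the other 8, and no kappa probe out of 85 lay above the pool. The lambda constant region 3 probes read 2.67 and 2.39 in line 1004, at most 0.77 and 0.59 elsewhere, and the kappa constant region probe was lowest there at -1.48, against -0.42 to 1.91 in the other lines. Its heavy chain signal was Gm16930, at 5.84 against -3.79 to -2.61 in the rest, a difference of at least 546-fold to the 2 lines in which that probe was not well above background. Lines 1001, 1007, 1036 and 1039 each had a kappa probe that was far higher than in any other line. Igkv6-17 read 2.04 in line 1001 and at most -3.83 elsewhere. Igkv12-98 read 5.84 in line 1007, the single line in which it was well above background, and -1.16 to -0.72 elsewhere. Igkv17-121 read 3.12 in line 1036 and at most -0.75 elsewhere, and Igkv9-124 read 6.05 in line 1039 and at most 1.97 elsewhere. Other kappa probes were high beside these. They were Igkv9-129 at 6.01, Igkv9-120 at 4.99 and Igkv14-130 at 4.64 in line 1039, and Igkv5-48 at 2.59 in line 1036. In line 1001 they were Igkv8-18 at 1.66 and Igkv6-25 at 1.42. The probes therefore do not tell which single segment these 3 lines used. On the dim array of line 1039, Igkv9-124 was the highest of the 16 probes too, at 3.91.

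Lines 1007, 1036 and 1039 overlapped in their heavy chain probes. Gm9235 read 4.65 in line 1007, 3.88 in line 1039 and 2.46 in line 1036, and Gm16865 read 2.8, 2.1 and 2.69, against at most 1.27 and -0.1 in the other 6 lines. Over the 64 heavy chain probes the pair 1007 and 1039 correlated at 0.955 and the pair 1036 and 1039 at 0.885, whereas over the 85 kappa probes the values were 0.679 and 0.3. Gm16966, the highest heavy chain probe of line 1039 at 4.14, read 4.5 in line 1007 and 3.69 in line 1019. Since Gm9235, Gm16865 and Gm16966 share stretches of 20 bases or more with other probes, the overlap does not show that these lines used 1 segment.

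Lines 1016 and 1019 had many kappa probes above the pool. In line 1016 these were 25 of 85 and in line 1019 they were 24, while the other 7 lines had 0 to 11. Heavy chain probes above the pool numbered 25 of 64 in line 1016 and 18 in line 1019, but also 22 in lines 1036 and 1039 and 19 in line 1007. Each still had leading probes of its own. Ighv1-63 read 4.93 in line 1016 and at most -0.23 elsewhere, and Igkv15-103 read 4.78 in line 1016 and at most -2.17 elsewhere. Ighv1-18 read 4.66 in line 1019, 1.42 in line 1016 and at most -1.88 in the rest. Gm16637, in the kappa locus, read 3.2 in line 1019, 0.43 in line 1016 and at most -3.24 in the rest.

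**Figure D2:**
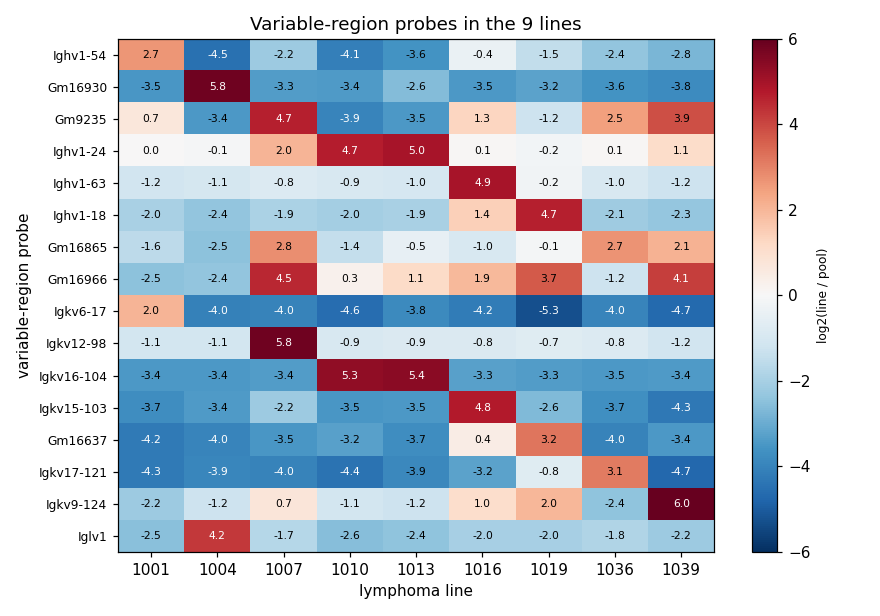
Log2 ratio of line over pool (colour and number) for the 16 V probes whose sequences are given, 1 row per probe and 1 column per line, the mean of 2 arrays for lines 1001 and 1010. Igkv16-104 and Ighv1-24 are high in lines 1010 and 1013 together, and Iglv1 and Gm16930 are high in line 1004.

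Constant region probes differed between lines as well. Heavy constant mu, the part of IgM, read 0.83 to 3.09 and was highest in line 1007, then in line 1039 at 2.42 and line 1004 at 2.06. Heavy constant gamma 2C, an IgG part, read 0.92 in line 1007 and -2.52 to -1.82 in the others. Its probe was well above background in 5 of the 9 lines. The gamma 1 probes read -3.97 to -1.63 in all 9 lines, with line 1013 highest.

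The X- and Y-linked genes split the lines into a group of 4 and a group of 5. Of the 5 genes of this list, 3 passed the filter and all 3 differed (median SD 2.75). Xist, the RNA that silences an X chromosome in female cells, read -4.11 to -3.44 in lines 1001, 1004, 1010 and 1013 and -0.45 to 1.91 in the other 5 (adjusted p = 0.00014). Eif2s3y, a translation factor gene on the Y chromosome, read 1.3 to 1.81 in the same 4 lines and -5.75 to -5.34 in the other 5, at least 99.3-fold lower than in line 1004 (adjusted p = 6.97e-06). Ddx3y, an RNA helicase gene of the Y chromosome, read 1.11 to 1.89 in lines 1004, 1010 and 1013 and -4.44 to -3.76 in the 6 others, where it was not well above background, at least 34.3-fold lower than in line 1004. Line 1001 was the exception, with Eif2s3y at 1.42 and Ddx3y at -4.06, not well above background on either array. Kdm5d read 0.14 to 0.66 in lines 1001, 1004, 1010 and 1013 and was well above background in these 4 alone. Kdm5d and Uty were too dim to enter the test. Of the 2 Uty probes, 1 was well above background in lines 1001, 1004 and 1013 and the other in lines 1007, 1010, 1016 and 1036, so they did not follow the split.

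Lines 1010 and 1013 resembled each other most of all. After each gene was centred on the mean of the 9 lines, they correlated at r = 0.65 across the 21248 genes, compared with 0.86 and 0.85 between the repeats of lines 1001 and 1010. Each repeat array of line 1010 gave this likeness by itself, at 0.671 and 0.582. The arrays of lines 1010 and 1013 were on different slides, and the labels do not say whether these lines came from the same mouse. Lines 1016 and 1019, which shared slide 3, came second at 0.397. The other 34 pairs lay between -0.326 and 0.0978, with 1007 and 1039 at the top of that range. Centring on the mean of the same 9 lines pushes r between lines below 0, so negative values do not mean opposed profiles. By the slide of each line's first array used, pairs on the same slide (12) had a median centred r of -0.14. Pairs on different slides (24) had -0.158. Lines 1001 and 1010 counted as slide 1 here, although their second arrays shared slide 2 with line 1039, so these medians do not isolate the slide. Without immunoglobulin probes the leading values were 0.638 and 0.307. Uncentred, the pairs correlated at 0.918 and 0.873, the other pairs at 0.679 to 0.811 and the repeats at 0.972 and 0.966. In the tree of average linkage these 2 pairs joined first, and the remaining lines joined at r = 0.0978 and lower.

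**Figure D3:**
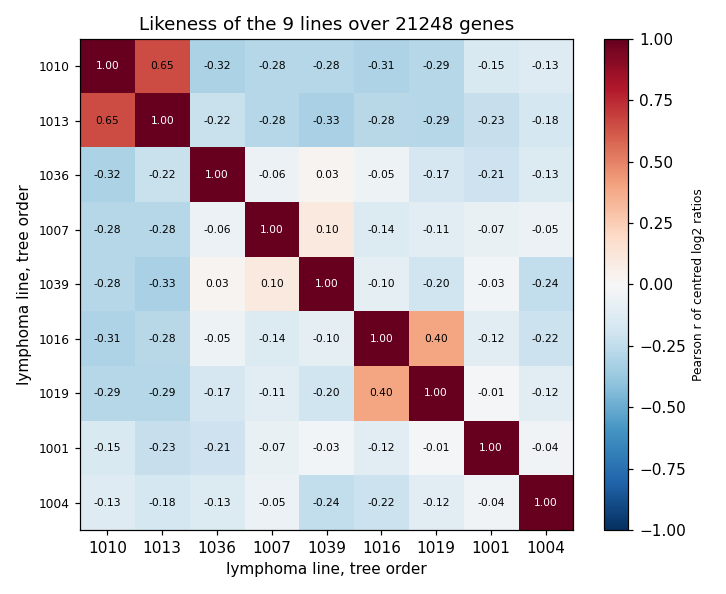
Pearson's r (colour and number) of the log2 ratios centred on the mean of the 9 lines, for every pair of lines, with rows and columns in the order of the average linkage tree. Lines 1010 and 1013 reach 0.65 and lines 1016 and 1019 reach 0.397, and the next pair is 1007 and 1039 at 0.0978.

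The pair 1010 and 1013 shared genes that no other line expressed at that level. In 57 genes both lay above all other lines by 2-fold or more and in 38 below, in all 95, against 31 for 1016 and 1019 and 0 to 21 for the other 34 pairs. The genes named for the 2 pairs were picked for the largest gaps, so their values are a description. Bcl11b, a transcription factor of T cell development, read 2.81 and 3.25 and was at most -1.69 in the other 7 lines, where it was not well above background in 5. Tspan6, a tetraspanin, read 3.33 and 3.42, at most -0.79 elsewhere. Dkk3, a secreted relative of WNT inhibitors, read 4.37 and 4.6, at most 0.4 elsewhere. Lrrk2, a kinase, read -1.88 and -1.08, at most -5.94 elsewhere. The germinal centre repressor Bcl6 read 2.43 and 2.57 in these lines and -0.31 to 0.7 in the rest. Mylip, a ubiquitin ligase for the LDL receptor, was low in both at -5.11 and -5.39, next to -1.69 or more elsewhere. Ada, adenosine deaminase, read -3.04 and -2.64, next to -0.69 or more.

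Lines 1010 and 1013 nonetheless differed from each other. The limma contrast called 649 genes (3.05%), 469 higher in line 1010 and 180 lower, and 364 genes differed by 2-fold or more, compared with the 51 between the repeats of line 1010. Cttn (cortactin) read 1.73 in line 1010 and -2.34 in line 1013, and Cd300lf, an inhibitory receptor, read 0.25 and -3.81. Nedd4l, a ubiquitin ligase, read 1.17 and -3.07. Klk1b26, a kallikrein, went the other way at -1.8 and 2.86, a log2 difference of -4.66 (SE 0.18, adjusted p = 0.00012). Hoxb13 read 0.65 and -2.96. Between lines 1016 and 1019 the contrast called 789 genes (3.71%), 357 higher and 432 lower in line 1016. Rhox5, a homeobox gene of the germ line, read 5.23 in line 1016 and 0.88 in line 1019, and Gabrr1, a GABA receptor subunit, read 4.43 and -0.02. Bmp7, a growth factor, read 0.28 and 3.55. These contrasts rest on the spread between the repeats of lines 1001 and 1010, since lines 1013, 1016 and 1019 had 1 array each.

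Genes that lines 1016 and 1019 had in common were fewer. Vopp1 read -0.19 and 1.07, at most -1.91 elsewhere, and Mei1, a meiosis gene, read 1.89 and 2.69, at most 0.66 elsewhere. Mgmt, the enzyme that removes alkyl groups from guanine in DNA, read 3.13 and 2.87 in them and 2.71 in line 1004, and -3.33 to -2.65 in the other 6 lines. In 5 of these 6 it was not well above background. Nefh, a neurofilament gene, was low at -2.7 and -2.49, next to -0.9 or more elsewhere.

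Outside the immunoglobulin and sex-linked genes, several genes differed between groups of lines by a wide gap. The X-linked lymphocyte-regulated genes Xlr4b, Xlr4a and Xlr3b, close copies of each other whose RNA the probes may not tell apart, had like patterns. Xlr4b read -6.7 to -6.08 in lines 1004, 1010, 1013 and 1039, -2.12 in line 1016 and -0.91 to 0.19 in the other 4. Lxn (latexin, a carboxypeptidase inhibitor) read -5.37 to -4.92 in lines 1010, 1013 and 1036 and 2.23 in line 1004, and was not well above background in line 1036. Tlx2, a homeobox gene, read 4.67, 4.36 and 4.04 in lines 1019, 1039 and 1016 and -2.61 to -1.85 in lines 1010, 1013 and 1036. Tusc1 read -4.09 to -3.73 in lines 1010, 1013, 1036 and 1039 and -0.64 to 1.81 in the rest. Cttn read 1.05 to 3.37 in the 4 lines that had an array on slide 1 (1001, 1004, 1007 and 1010) and -2.52 to -2.16 in the other 5. The second arrays of lines 1001 and 1010, on slide 2, differed from the first by 0.13 and 0.25 for Cttn. Egln3, an oxygen-sensing hydroxylase, read 1.92 to 2.31 in lines 1004, 1016, 1019 and 1036 and -3.07 to -2.46 in lines 1007, 1013 and 1039. Ptpn13, a phosphatase, was low in lines 1001 and 1039 at -1.99 and -1.77, where it was not well above background, and read 2.09 to 4.09 in the others. The repeat SD of these genes was 0.0277 to 0.319.

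Plasma cell genes differed between lines and were highest in line 1007. Of 13 plasma cell genes tested, 11 differed among lines, with a median SD of 0.556 compared with 0.243 over all genes. This count and the counts of list members below stand beside the 43.9% of all genes that differed. That share also covers probes without a matched symbol, each under its own name, and dim genes. Among genes well above background in the sample channel on all 11 arrays, 8494 of 16654 differed. The median of the list was highest in line 1007, at 0.89 above the mean of the 9 lines, then in line 1039 at 0.47, and -0.32 to 0.27 in the other 7. Line 1007 also had the highest median of the marginal zone and B-1 genes (0.51) and of the germinal centre genes (0.25). Prdm1, the factor that starts plasma cell differentiation, read 2.72 in line 1007, 1.31 in line 1039 and -0.6 to 0.81 in the rest (adjusted p = 8.33e-05). Jchain, which links IgM into pentamers, read 2.01 in line 1007, 1.61 in line 1004, -0.31 in line 1039 and -2.54 to 0.22 in the rest. Sdc1, the plasma cell surface marker CD138, read 0.59 in line 1007 and -3.06 to -1.48 in the rest. Creb3l2, a secretory pathway factor, read 2.17 in line 1007 and 0.02 to 1.52 in the rest.

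Germinal centre genes varied without a common order. A total of 19 of 21 tested differed, with a median SD of 0.447, yet the list's median by line stayed between -0.26 and 0.25. Besides Bcl6, Lmo2, a germinal centre cofactor, read -2.66 to 0.14 and was lowest in lines 1001 and 1019. Cd38 read -2.06 in line 1036 and -0.72 to 0.7 elsewhere. Of the resting and naive B cell genes 14 of 18 differed (median SD 0.52), among them S1pr1, the receptor for leaving lymphoid tissue, at -4.82 in line 1036 to -1.82 in line 1007. Bach2, a repressor of plasma cell fate, read -2.46 in line 1004 and -6.27 to -5.14 in the others, of which 3 were not well above background. All 15 marginal zone and B-1 genes tested differed (median SD 0.561). Spn (CD43) was lowest in line 1036 at -4.35 and highest in line 1004 at -0.59. Among precursor genes 7 of 14 differed (50%, median SD 0.328), near the 43.9% of all genes. Dntt, the enzyme that adds bases at V segment joins, read -3.06 in line 1013 and -2.42 in line 1010, and 2.87 in line 1039 and 2.22 in line 1004, with a repeat SD of 0.342. Bst1 read 2.61 and 2.01 in lines 1010 and 1013 and -2.61 to -0.87 in the rest.

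Line 1036 had the lowest B cell identity and antigen presentation genes. Of 16 identity genes 13 differed (81.2%, median SD 0.435), and the list's median was -0.5 in line 1036 and 0.43 in line 1004. Ms4a1 (CD20) read -0.44 in line 1036 and -0.05 to 0.94 elsewhere. Pax5 and Ebf1, the factors that maintain B cell identity, did not pass the test, at -1.04 to -0.38 (adjusted p = 0.0829) and -0.52 to 0.17 (adjusted p = 0.0822). Of the MHC class II genes 9 of 10 differed (median SD 0.643), and the list's median ran from -0.96 in line 1036 to 0.73 in line 1004. Several of these genes are neighbours, in a run of 25 genes on chr17:34203113-34728696 with H2-Eb2, H2-DMb2, H2-DMb1, H2-DMa, H2-Aa and H2-Eb1 in it. The median over its genes was -0.54 in line 1036 and 0.45 in line 1004, and the class II genes themselves enter that median. In line 1036, 12 of the 25 genes (48%) lay below all other lines, next to 17.3% of all genes. H2-DMb2 read -2.59 in line 1036 and -1.61 to -0.34 elsewhere, and Cd74, the invariant chain, read -0.84 in line 1036 and 1.48 in line 1004. Ciita, the class II transactivator, was named after its values were seen; it read -0.52 to -0.02 and did not pass (adjusted p = 0.162), with a probe well above background in 6 lines.

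Of the B cell receptor signalling genes 14 of 22 differed (63.6%, median SD 0.34), next to 43.9% and 0.243 over all genes. Rasgrp3, which activates RAS below the receptor, read -3.46 in line 1036, -1.55 to -0.74 in lines 1039, 1004 and 1019 and 0.09 to 0.79 in the other 5. Malt1, a protease of the NF-kappaB route, read 1.34 in line 1001 and -1.14 in line 1004. Among NF-kappaB targets 9 of 16 differed (56.2%, 0.333), with Tnfaip3 at -1.9 in line 1010 and -0.34 in line 1039. Of the immediate early genes 16 of 18 differed (88.9%, 0.402). Egr1 read 1.93, 1.88 and 1.85 in lines 1007, 1039 and 1013, 0.68 in line 1010 and -0.94 to 0.05 in the other 5. Egr2 was highest in the same 3 lines, at -1.04, -0.69 and -0.39, then in line 1010 at -2.02, and -4.07 to -2.74 in the rest. Fos read -0.65 in line 1007 and -1.99 in line 1039, with -3.67 to -2.44 in the other 7.

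Line 1039 had the highest and line 1004 the lowest level of cell division genes. In that list 19 of 20 differed (median SD 0.478), and the median by line ran from -0.73 in line 1004 to 0.86 in line 1039, with -0.29 to 0.34 between. Cdk1, the mitotic kinase, read -1.14 in line 1004 and 1.48 in line 1039, and 0.01 to 0.7 in the others. Rrm2, which makes DNA precursors, read -1.01 and 1.37, and -0.97 to 0.41 in the others. Mki67 read -0.83 and 0.95. DNA damage response genes followed a like order of extremes, with 12 of 20 called (0.276), a median of -0.44 in line 1004 and 0.25 in line 1039, and -0.06 to 0.07 in the rest. Brca2 read -0.8 in line 1004 and 0.9 in line 1039, and -0.02 to 0.63 elsewhere. Of the MYC target and ribosome biogenesis genes 10 of 20 differed (50%, median SD 0.279), near the 43.9% of all genes, with Srm at -0.85 in line 1010 and 0.47 in line 1036. Myc itself read -1.85 in line 1001 to -1.03 in line 1016, an SD of 0.28 (adjusted p = 0.012). The genes whose pattern over the 9 lines was most like that of Myc were Wfdc1 (r = 0.939), Alcam (0.934) and Dscam (0.912), a description over 9 points that share the pool, and Wfdc1 itself did not pass the test (adjusted p = 0.267).

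Single cell cycle inhibitors differed without a common order of the lines. Cdkn2a, which encodes the tumour suppressors p16 and ARF, read -0.3 in line 1013, 0.29 in line 1039, 0.79 in line 1010, 1.29 in line 1001 and 2.07 to 2.58 in the other 5 (SD 1.02, repeat SD 0.105, adjusted p = 0.000156). Its neighbour Cdkn2b was lowest in line 1013 as well, at 0.66, but read 2.19 in line 1039. Cdkn1b (p27) read -0.73 in line 1036 and 0.72 in line 1010, and Ccnd3 (cyclin D3) was highest in line 1036 at 0.79, next to -0.83 to -0.06 elsewhere. In the list of D cyclins and CDK inhibitors 10 of 12 differed (83.3%, median SD 0.398). Most like Cdkn2a over the 9 lines were Pabpn1l (r = 0.941), Pfdn1 (0.938) and Pias4 (0.91), of which Pfdn1 and Pias4 did not pass the test themselves (adjusted p = 0.185 and 0.855).

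Target genes of p53 were highest in line 1036, with a list median of 0.56 there and -0.24 to 0.16 in the other 8. Of 20 tested 18 differed (90%, median SD 0.399), next to 43.9% of all genes. Cdkn1a (p21), also named after its values were seen, read 2.39 in line 1036, 1.74 in lines 1010 and 1013, and 0.7 to 1.12 in the rest, and Phlda3 read 2.27 in line 1036 and -1.49 to 0.44 elsewhere. Plk2 did not follow, at 0.57 in line 1036, 2.51 in line 1004 and -2.69 in line 1007. BCL2 family genes differed in 8 of 11 (72.7%, 0.303). Bcl2l11 (BIM), which promotes cell death, read -2.66 in line 1039 and -0.83 in line 1004, and Bcl2 read -0.61 in line 1007 and 0.97 in line 1036.

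Glycolysis and hypoxia genes were lowest in line 1039. They differed in 18 of 22 (81.8%, median SD 0.398), next to 43.9% of all genes. The list median was -0.43 in line 1039, -0.28 in line 1007 and -0.02 to 0.22 in the other 7, while repeats differed by 0.05 and 0.06. In this list, Aldoc, an aldolase, read -2.3 and -2.05 in lines 1013 and 1010 and -0.33 to 1.06 elsewhere. In the unfolded protein and ATF4 list 16 of 19 differed (0.551). Trib3, an ATF4 target, read 3.87 and 2.95 in lines 1010 and 1013 and 0.54 to 2.18 in the rest, and Chac1 read -0.29 in line 1036, 0.19 in line 1016 and 1.15 to 3.12 in the rest. Cholesterol synthesis genes differed in 9 of 21 (0.237), close to the share over all genes, FOXO-induced genes in 11 of 16 (0.412) and interferon-induced genes in 14 of 22 (0.455). Mx1, an antiviral gene, read -0.42 in line 1004 and 2.03 in line 1010.

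Surface and secreted genes varied line by line. Homing and adhesion genes differed in 19 of 22 (86.4%, median SD 0.446), next to 43.9% of all genes, with Cxcr3 at -2.69 and -2.52 in lines 1010 and 1013 and 1.67 in line 1004. Costimulation and checkpoint genes differed in 14 of 18 (77.8%, 0.561). Pdcd1 (PD-1) read 0.55 in line 1004, -0.71 to 0 in lines 1010, 1013 and 1016, and -3.32 to -2.12 in the other 5. Ctla4 read 2.84 in line 1004 and -0.09 in line 1001. Cytokine and chemokine genes differed in 12 of 22 (54.5%, 0.363), nearer to the share of all genes, and Il10 read 3.08 in line 1004 and -0.02 in line 1019.

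Markers of other cell types were checked in the same way. T cell genes differed in 12 of 17 (median SD 0.49): Cd3g read -2.36 in line 1007 and -0.02 to 1.92 in the other 8, Lck read -3.42 to -0.84, and Zap70, a kinase of the T cell receptor, read 1.42 in line 1036 and -4.02 to 0.09 in the rest. The list's median by line ran from -0.28 in line 1036 to 0.21 in lines 1013 and 1019. NK and cytotoxic genes differed in 2 of 12 (0.235), with Klrb1c at 2.39 in line 1016 and -1.52 to 0.5 elsewhere. Next to the 43.9% of all genes, macrophage and dendritic cell genes differed in 7 of 16 (43.8%, median SD 0.242), neutrophil and mast cell genes in 1 of 15 (0.184), erythroid and platelet genes in 4 of 12 (0.219) and stromal and endothelial genes in 5 of 10 (50%, median SD 0.293). The medians of these 4 lists lay between -0.24 and 0.17 in every line. Itgax (CD11c) read 2.04 in line 1004 and -1.79 in line 1013, and Epor, the erythropoietin receptor, read 0.88 and 0.78 in lines 1013 and 1010 and -2.89 to -1.22 in the rest.

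In the homeobox and stem cell list 11 of 16 differed (68.8%, median SD 0.552). Hoxa7 read 2.61 in line 1036, 0.47 in line 1010 and -2.76 to -1.09 in the rest. Meis1 read 3.01 in line 1019 and -2.3 in line 1039. Of the germ line and imprinted genes 3 of 7 tested differed (42.9%, median SD 0.329), near the share of all genes, with Peg3 at 2.48 in line 1016. Of 16 genes known to differ between inbred mouse strains 14 differed (0.428), with Naip1 at 2.47 in line 1004 and -0.42 in line 1010. The immunoglobulin list had 1 member matched by symbol, Igkc, whose probe the array describes as an unclassifiable bone cDNA. It read -1.46 to 0.06 (adjusted p = 0.0261) and was well above background in 5 lines. The kappa constant region probe given above is another one, well above background in all 9 lines.

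**Figure D4:**
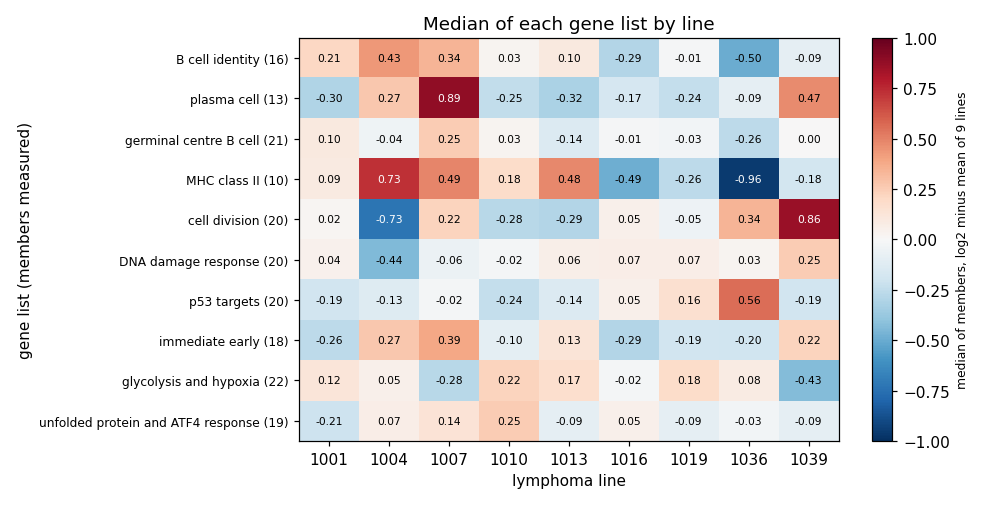
Median over the members of 10 gene lists in each line (colour and number), in log2 units from the mean of the 9 lines, with the number of members measured in brackets. Line 1007 is highest for plasma cell genes at 0.89, line 1039 for cell division at 0.86 and line 1036 for p53 targets at 0.56, and line 1036 is lowest for MHC class II at -0.96.

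Each line was also set against the mean of the other 8. Line 1010 had 6221 genes called (29.3%), line 1004 had 4546 (21.4%), line 1036 had 4534 (21.3%), line 1039 had 4295 (20.2%), line 1013 had 3700 (17.4%), line 1001 had 3450 (16.2%), line 1007 had 2306 (10.9%), line 1016 had 2146 (10.1%) and line 1019 had 1663 (7.83%). Lines 1001 and 1010 had 2 arrays, which lowers the error of their means, so these counts do not rank the lines. Genes beyond all other lines by 2-fold or more numbered 100 above and 31 below in line 1004, 60 and 80 in line 1036 and 14 and 62 in line 1013. The 100 genes farthest from the other lines on the first array of line 1001 all kept their sign on its second array. Their median size was 2.88 and then 2.95, and for line 1010 the values were 100 genes, 2.95 and 2.85. With a median repeat SD of 0.11, genes this far out could hardly change sign, so this describes the repeat arrays and tests nothing about the lines.

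Single genes were outside the range of the other 8 lines. In line 1001, Fabp7, a fatty acid carrier, read 2.45 and at most -0.11 elsewhere, and Plch2, a phospholipase, read -0.98 and at least 0.92 elsewhere. In line 1004, Vipr1, a neuropeptide receptor, read 3.04 and at most -0.23 elsewhere, and Magi1, a scaffold protein, read 4.36 and at most -0.3. In line 1007, S100a6 read 2.48 and at most 0.99 elsewhere, and Wfdc21 read -3.46 and at least -1.72. Ifi208, an interferon-inducible gene, read 2.69 in line 1010 and at most -0.22 elsewhere.

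Line 1013 had more such genes below than above the other lines. Lgals1 (galectin 1) read -5.29 and at least -2.62 elsewhere, a log2 difference of -5.37 from the mean of the others (SE 0.17, adjusted p = 1.46e-05). Ehd3 read -4.95 and at least -1.44 elsewhere, and Eci2, an enzyme of fatty acid breakdown, read -4.75 and at least -0.78. In line 1016, App, the amyloid precursor gene, read -3.22 and at least -1.36 elsewhere, and Erich1 read -2.85 and at least 0.31. In line 1019, Bmp7 read 3.55 and at most 1.34 elsewhere, and Cln8 read -2.47 and at least -1.44. In line 1036, Cibar1 read -4.41 and at least 0.98 elsewhere, at least 60.3-fold lower than line 1013, while Smpdl3a read -4.9 and at least -1.4. In line 1039, Ly6k read 2.9 and at most -2.64 elsewhere, Sh3bgr read 4.21 and at most 0.55, and Acsbg1 read -2.07 and at least -0.36.

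Neighbouring genes were shifted together in some lines. The median of a whole chromosome, taken over its genes after centring, lay within 0.05 of 0 in 159 of 180 cases, and repeats differed by at most 0.06. Chromosome 1 stood at 0.18 in line 1004, chromosome 16 at 0.13 in line 1013 and 0.07 in line 1010, chromosome 14 at 0.11 in line 1039 and 0.09 in line 1004, chromosome 6 at -0.13 and chromosome 10 at -0.1 in line 1036, and chromosome 5 at 0.08 in line 1016. In 4056 windows of 25 consecutive genes with the immunoglobulin probes left out, measured from the median of the 9 lines, the median absolute value was 0.0197. The largest was 1.08, and the largest difference between repeats was 0.379 (99th percentile 0.166). Windows at or past 0.5 merged into 41 runs of genes, 12 in line 1036, 10 in line 1004, 8 in line 1039, 5 in line 1013 and none in lines 1016 and 1019. Runs were counted for each line, so the same stretch can count more than once. For example, chr13:21596428-22371102 counted as higher in line 1039 and as lower in line 1004. Windows and threshold were chosen after the data were seen, and the runs were picked by these values, so they are described without a test, and the genes named in them were picked after their values were seen.

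A run on chromosome 12 spans the heavy chain locus, whose probes were left out of it. On chr12:111830845-117402128 (mm9), 65 genes had a median of 0.79 in line 1013, 0.64 in line 1010 and 0.52 in line 1036, and -0.14 to 0.07 in the other 6 lines. Repeats differed by 0.02 and -0.04 there. Among its genes, named after their values were seen, Adssl1 read 3.7 in line 1013 and 3.43 in line 1010, next to -0.01 to 1.69 in the rest. Siva1, which promotes cell death, read 1.56, 1.21 and 0.95 in lines 1013, 1036 and 1010, next to -0.46 to 0.14 in the rest. Mta1, a chromatin regulator, read 1.76, 1.54 and 1.39 in lines 1013, 1010 and 1036, next to -0.2 to 0.47 in the rest. A second run on that chromosome, chr12:100809499-104927992, was high in line 1036 alone, at 0.59 over 45 genes, with -0.05 to 0.02 in the others.

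Line 1036 had the most runs of lower genes. On chr10:4533288-19861330, 75 genes had a median of -0.62 in line 1036 and 0 to 0.08 in the other 8, and 46 of them (61.3%) lay below all other lines, next to 17.3% of all genes. Zc3h12d, a regulator of inflammatory mRNA, read -0.94 in line 1036 and 0.16 to 1.5 elsewhere, and Pex7, a peroxisome import receptor, read -0.84 and 0.11 to 0.47. On chr2:118914569-122091072, 80 genes had a median of -0.55 in line 1036 and 0 to 0.06 in the others. Chac1, given above, lies in it, and so does Rtf1, which read -1.04 in line 1036 and -0.26 to 0.22 elsewhere. Farther along chromosome 10, lines 1004 and 1036 were low together: on chr10:31133618-41250716, 55 genes had medians of -0.52 and -0.53, against 0 to 0.11 in the other 7. Rev3l, a subunit of a DNA polymerase that copies past damage, read -1.58 in line 1004, -1.32 in line 1036 and -0.54 to -0.09 in the other 7.

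Lines 1004 and 1039 held most of the other runs. In line 1004, 70 genes on chr16:36569043-45412505 had a median of -0.5 (1013 stood at 0.23 and the rest at -0.02 to 0.06), 35 genes on chr4:149479719-153530914 had -0.6 (the rest -0.04 to 0.1), and 50 genes on chr1:82892729-88187525 had 0.53 (the rest -0.19 to 0.13). Polq, a DNA polymerase of end joining, lies in the first of these and read -1.28 in line 1004 and -0.17 to 0.56 elsewhere. In line 1039, 60 genes on chr14:28238743-33912538 had a median of 0.57, with line 1004 next at 0.26 and the rest at -0.07 to 0.1. Cacna1d, a calcium channel gene, lies there and read 2.64 in line 1039 and 0.35 to 1.44 elsewhere. On chromosome 13, runs of 35 and 25 genes that hold the replication-dependent histone genes stood at 0.55 and 0.74 in line 1039, and line 1004 stood at -0.2 and -0.73. Cell division genes were highest in line 1039 and lowest in line 1004 as well, and their part in the histone values was not tested. DNA copy number was not measured, so whether the runs reflect copies of the DNA or its transcription cannot be told apart.

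**Figure D5:**
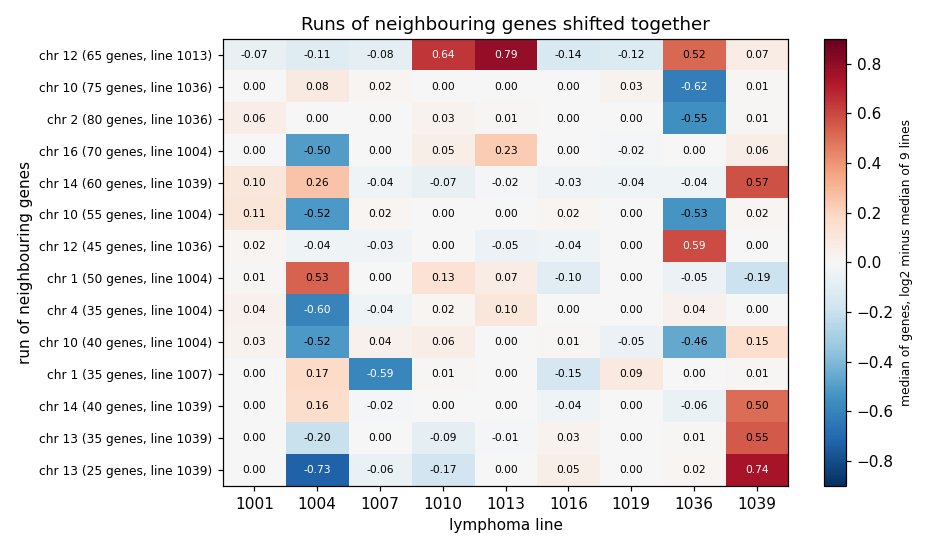
Median over the genes of 14 runs of neighbouring genes in each line (colour and number), in log2 units from the median of the 9 lines. Rows give the chromosome, the number of genes and the line in which the run was found. The chromosome 12 run of 65 genes is high in lines 1010, 1013 and 1036, and the chromosome 10 run of 75 genes is low in line 1036 at -0.62.

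Detection gave a last view of the lines. Without the filter on dim probes, 16566 genes were well above background in all 9 lines and 2369 in a single line. These single-line genes numbered 440 in line 1004, 424 in line 1013, 58 in line 1010 and 32 in line 1001, and lines 1010 and 1001 had to pass on both of their arrays.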

How the data were processed

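Two-colour Agilent arrays carried RNA of each lymphoma line (Cy5) against the common pool (Cy3). The deposited scanner files hold spot intensity values per channel from Feature Extraction 10.1.1.1, per the file headers, while the submitters' processing notes name Feature Extraction 9.1 and limma. The deposited value table holds log10 ratios, which matched the scanner's log ratio of red over green within 5e-04 on each array. Its column medians ran from -0.072 to 0.007, and 20 columns of other samples were not used.

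From the intensities, background was corrected with normexp (offset 50), and log2 ratios were normalised within arrays by loess, without control spots or outlier flags, in R 4.3.3 with limma 3.58.1. These log2 values were computed here from the intensity values the authors deposited. Kept probes were flagged as well above background, by the red or the green channel, on a share of 0.5 or more of the 11 arrays. Of 55681 probes, 27235 (48.9%) matched a symbol of the RefSeq gene table, and 30453 of all probes passed the filter. The brightest probe stood for a gene, and 112 genes with a missing value were left out. A linear model with 1 mean per line was fitted to all 21248 genes, with 2 residual and 4.75 prior degrees of freedom, and tested with a moderated F test and with contrasts of each line against the mean of the other 8. P-values were adjusted by Benjamini-Hochberg over all genes, and 0.05 was the threshold. The repeat SD is the pooled SD of the repeats of lines 1001 and 1010. A bound ("at least N-fold") sets the bright line's normalised sample signal against the higher of the lowest signal among probes well above background and the dim probe's own, after Aquantile, and is open to dye bias. It is given only where it is no larger than the fold of the log2 ratios. A line with 2 arrays counts as above background where either array was, except in the closing count of detected genes. The number of arrays limits the precision. The numbers of the repeats coincide with slides 1 and 2 for lines 1001 and 1010, and with 2 such pairs they were not taken as a pairing. The fit was tested on simulated data.

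Genes were named by a rule: Atm and Cd3e, the 20 largest SDs over lines, up to 3 per line and direction outside the range of the other lines, up to 4 members of each of 35 lists with the largest SD, and all sex-linked and B cell identity genes. Some genes that the rule gives are not reported here. The members and lists were chosen with earlier results of these data known. Variable-region probes, windows of 25 genes, the contrasts within pairs of lines and the likeness without immunoglobulin probes were chosen after seeing the data. Alternatives covered the background correction, normalisation, dim-probe filter, probe choice, dim array, slide, prior variance, threshold and each array left out.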

Additional observations from a re-analysis of the deposited data

Results flagged for a closer look

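Over the 9 lines, a value is given here where the gap between the highest or the lowest line and the next one was large for the range of all 9. For normal values picked without regard to their spread, chance alone gives about 1 in 20 such cases. Among 34 lists, 2 had one: the median of the p53 targets was 0.56 in line 1036, with the next line at 0.16, and that of the DNA damage response genes was -0.44 in line 1004, with the next line at -0.06. Among 20 chromosomes, 2 had one, both in line 1004: the median of chromosome 1 was 0.18, with the next line at 0.01, and that of chromosome 17 was 0.06, with the next line at 0.

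Among 66 list members named in the text, 6 had one. Bach2 read -2.46 in line 1004 and next -5.14, and Cd74 read 1.48 in line 1004 and next 0.32. Ccnd3 read 0.79 in line 1036 and next -0.06. Cd300lf read -3.81 in line 1013 and next 0.18. In line 1007, Cd3g read -2.36 and next -0.02, and Sdc1 read 0.59 and next -1.48.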

How the results depend on the processing

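Gene counts depended on how the spread between arrays was estimated, whereas lines 1010 and 1013 were more alike than 1016 and 1019 under each alternative that gave both values. With the scanner software's own processed values, 3854 genes differed among the lines and 181 list members were called. The counts for lines 1001, 1004, 1007, 1010, 1013, 1016, 1019, 1036 and 1039 were then 1618, 1944, 865, 3910, 1884, 502, 638, 2035 and 1449, and the likeness of 1010 and 1013 was 0.54. With the dim array of line 1039 averaged in, 502 genes and 30 list members were called, and the lines had 201, 184, 5, 671, 211, 34, 7, 159 and 150. With that array and slide as a fixed term, 16740 genes were called, and the lines had 9270, 8433, 7406, 10945, 9432, 8810, 7935, 10776 and 10245. The replicate block, which here equals a term for slide 2, called 15145 genes, and 6510, 8240, 5923, 9522, 7613, 5598, 4978 and 8440 for lines 1001 to 1036. At an adjusted p of 0.01, 4850 genes differed. The cause of these shifts was not tested.

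With normexp offset 16, lines 1007, 1016 and 1019 had 1535, 1273 and 1015 genes, and with median centring line 1019 had 2741. Median centring gave chromosome medians of 0.11 (14 in line 1004), -0.17 and -0.14 (6 and 10 in line 1036), 0.11 (16 in line 1013), 0.21 (14 in line 1039) and 0.15 (5 in line 1016). Genes well above background in the sample channel on all 11 arrays gave 0.23 and 0.14 (1 and 14 in line 1004), -0.15 (6 in line 1036), 0.16 (16 in line 1013) and 0.17 (14 in line 1039). Likeness was 0.489 and 0.198 for the pairs 1010 and 1013 and 1016 and 1019 by Spearman's rho, 0.754 and 0.557 over the 1000 genes of largest SD, and 0.307 for the second without immunoglobulin probes. Leaving out each array in turn gave 2087 to 4637 genes for line 1001, the lowest without its second array, 1563 to 2534 for line 1019, the highest without a repeat of line 1010, and 0.577 to 0.667 for the likeness of 1010 and 1013. Over the named genes, 122 tests fell short of the threshold and 15 newly passed it, while 2976 stayed on their side. Most of these tests were of the SD over lines, which has no sign to change. No line contrast changed sign, but these were picked for large differences and could hardly do so. Slide as a random block could not be fitted, since no correlation could be estimated. Lines of slide 3 alone and of slide 2 alone left no repeat to test with. Signal over background limits the dim probes, whose values have no order among lines that were not well above it.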
